A study of Mus musculus with 59 samples.

Results

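Nr1d1, Nr1d2, Rora and Hlf are 4 clock genes that act in the loops attached to the core circadian feedback. They were chosen by name, as the genes of the REV-ERB receptors, 1 ROR receptor and 1 PAR bZIP factor, and are 4 of the 4484 genes in the table used here. All 4 passed the filter on low values, which left 4273 genes tested. RNA came from homogenates of the medial prefrontal cortex, taken from adult mice of the inbred strain C57BL/6J with a wild-type genotype, killed every 4 h over 24 h. The 59 libraries form 12 groups, males and females at 6 zeitgeber times that start at ZT2 and end at ZT22; each group has 5 libraries, and only the ZT10 females have 4. Titles in all 12 groups repeat an animal number, so that the 59 libraries carry 37 combinations of group and number; whether such libraries are 1 animal is not given, and if they are, the errors and p-values over libraries are too small. No group carries a mutation or a treatment, and the labels give no age in weeks and no light schedule. By convention ZT0 is lights on and ZT12 lights off, so ZT14, ZT18 and ZT22 are called dark times here.

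In the mammalian clock, the activators CLOCK and BMAL1 bind E-boxes and switch on Nr1d1 and Nr1d2. The encoded REV-ERB proteins are heme-binding nuclear receptors that repress genes carrying ROR elements, among them the BMAL1 gene Arntl, by recruiting the NCoR and HDAC3 corepressor, whereas ROR receptors such as the product of Rora activate through the same elements. Hlf encodes a PAR bZIP activator, related to DBP and TEF, that binds D-boxes, and mice lacking the PAR bZIP factors together have epileptic seizures.

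The stretches just upstream of the start sites are given because these elements are where the loops are written in DNA. Each is the 250 bases before the RefSeq start in GRCm38.p6, on the gene's own strand, read 5′ to 3′, and capitals mark a match to one of the motifs searched. The stretch of Nr1d1 lies at chr11:98775378-98775627 (minus strand), that of Nr1d2 at chr14:18239107-18239356 (minus strand), that of Rora at chr9:68653536-68653785 (plus strand) and that of Hlf at chr11:90390918-90391167 (minus strand).
Nr1d1: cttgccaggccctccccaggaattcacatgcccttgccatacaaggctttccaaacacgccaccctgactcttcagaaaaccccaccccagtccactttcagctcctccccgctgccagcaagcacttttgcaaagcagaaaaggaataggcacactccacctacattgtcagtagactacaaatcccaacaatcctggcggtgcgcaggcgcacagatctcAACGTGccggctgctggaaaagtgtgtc
Nr1d2: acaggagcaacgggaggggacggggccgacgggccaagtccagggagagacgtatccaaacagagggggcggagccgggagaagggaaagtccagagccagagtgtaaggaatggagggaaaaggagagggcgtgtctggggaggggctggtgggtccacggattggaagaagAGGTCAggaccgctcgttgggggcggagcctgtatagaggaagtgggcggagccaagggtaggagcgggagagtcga
Rora: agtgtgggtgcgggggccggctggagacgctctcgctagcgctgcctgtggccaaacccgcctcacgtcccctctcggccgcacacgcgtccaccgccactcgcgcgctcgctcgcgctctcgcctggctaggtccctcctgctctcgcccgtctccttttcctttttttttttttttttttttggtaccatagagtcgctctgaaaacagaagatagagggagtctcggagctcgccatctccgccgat
Hlf: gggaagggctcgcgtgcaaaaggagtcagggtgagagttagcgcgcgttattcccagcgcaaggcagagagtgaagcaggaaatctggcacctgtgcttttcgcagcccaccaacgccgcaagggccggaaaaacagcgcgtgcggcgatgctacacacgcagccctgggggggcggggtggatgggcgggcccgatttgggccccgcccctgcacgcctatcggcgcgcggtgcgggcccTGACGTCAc

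The motifs were searched on both strands in windows of 300 bases, with 250 bases before and 50 after the start, in these 4 and in all 32851 promoters of the table. Nr1d1 held the E-box variant CACGTT at position -28 from the start, on the opposite strand, so that it reads AACGTG above; 4.68% of all promoters held this variant. Nr1d2 held the receptor half-site AGGTCA at -77, as did 16.3% of all promoters. Hlf held the cAMP response element TGACGTCA at -9, as did 1.79% of all promoters. The full E-box CACGTG, present in 7.15% of all promoters, and the D-boxes TTATGTAA and TTACGTAA, present in 1.06%, were in none of the 4 windows, and Rora held none of the motifs. A match describes these letters only.

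Reads recovered per library, summed over the 4484 genes in the table, ran between 6317420 and 13325019 (median 9015221). Of these the 6 most abundant noncoding genes took 61.4% to 91.2%. The table is partial, holding 7 of 20 core clock genes listed, so these sums are not the full depth of a library. The median library held 306 reads of Nr1d1 (99 to 1140), 1080 of Nr1d2 (583 to 2022), 506 of Rora (260 to 1106) and 987 of Hlf (416 to 2409). At these medians, counting error alone is 0.08 for Nr1d1, 0.04 for Nr1d2, 0.06 for Rora and 0.05 for Hlf on the log2 scale (SD), below the SD within groups of 0.42 for Nr1d1, 0.25 for Nr1d2, 0.30 for Rora and 0.21 for Hlf. The median gene tested had a within-group SD of 0.35, so Nr1d1 was the noisiest member and Hlf the steadiest. Libraries with serial numbers 49 to 60, 11 in all, had high values on the first principal component, 0.167 to 0.498, where the other 48 ran between -0.544 and 0.392 and 6 of them lay within that range. Calls of members that ended when these 11 were left out are given below. Of 22 tested markers of 9 cell types, 0 had a 24 h rhythm by limma with Benjamini-Hochberg adjustment, 0 by limma voom, and 4 reached an unadjusted p under 0.05, as did 486 of the 4273 genes tested, 11.4%. The tissue check rested on markers of glutamatergic neurons, with Slc17a7 at a mean of 14.86 on the log2 scale.

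Nr1d2 was the most abundant member per annotated exonic length. Its mean was 643.9 scaled counts per kb of exonic bases, with 455.9 for Hlf and 322.5 for Nr1d1, and Rora was at 18.5% of the level of Nr1d2 on this scale. The longer Rora transcript set, with 13071 exonic bases, therefore gave fewer counts per kb than the other members, although its log2 level of 10.57 per gene exceeded that of Nr1d1 (9.87). Exonic bases were pooled over all annotated transcripts, 2 for Nr1d1, 4 for Nr1d2 and 6 each for Rora and Hlf. The ranking therefore depends on the annotation, since the transcripts expressed were not resolved.

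Over the day Nr1d1, Nr1d2 and Hlf rose and fell with a 24 h rhythm, Hlf last, and no rhythm was detected in Rora. The REV-ERB genes had their fitted peaks around the change from light to dark, and Hlf had its peak in the later part of the dark phase. In a cosine fit, 3 of the 4 members were called (adjusted p under 0.05, limma, Benjamini-Hochberg), where 81 of all 4273 genes tested, 1.9%, were called. With reads scaled by the library total, all 3 member calls ended (adjusted p = 1 each) and 3 genes were called, and with the first 2 principal components as covariates 499 genes were called (limma, Benjamini-Hochberg). With libraries of the same animal number averaged, a setting chosen after seeing the data, the 3 members were called with amplitudes of 0.37 for Nr1d1 (adjusted p = 0.0388), 0.28 for Nr1d2 (0.00308) and 0.20 for Hlf (0.0286), among 65 genes (limma, Benjamini-Hochberg). All values that follow are log2 of a scaled count plus 1. In a homogenate, fewer cells of a type and less RNA per cell cannot be told apart.

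**Figure D1:**
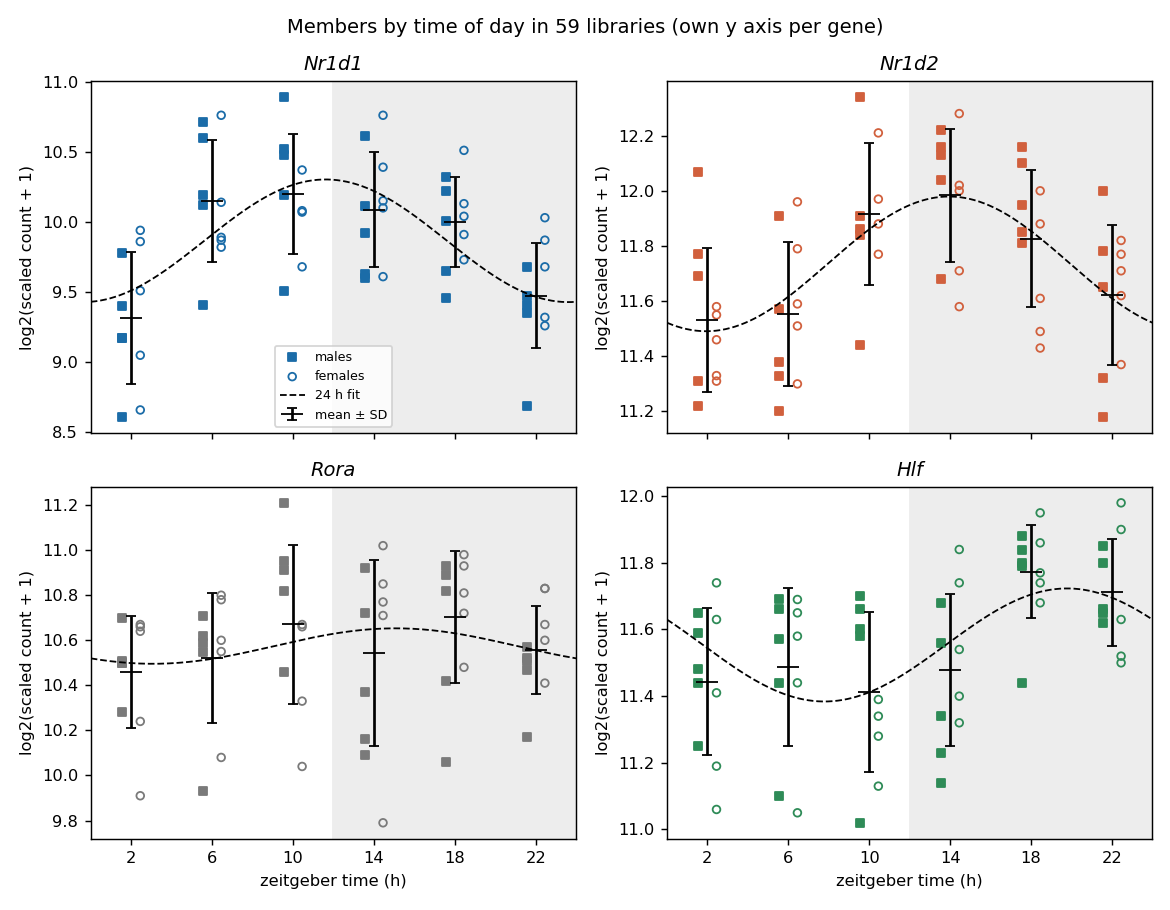
Level of each member, as log2 of a scaled count plus 1, against zeitgeber time in hours; squares are male and circles female libraries, black marks are means ± SD over both sexes, dashed lines the 24 h fit, and the dark phase is shaded. Nr1d1 is lowest at ZT2 and ZT22, Nr1d2 at ZT2 and ZT6, Hlf is highest at ZT18 and ZT22, and Rora spreads as widely within a time as between times.

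Nr1d1 (ENSMUSG00000020889, GRCm38 chr11:98767932-98775333, minus strand), the gene of REV-ERB alpha, moved furthest. Its level averaged 9.32 ± 0.47 at ZT2, 10.15 ± 0.43 at ZT6, 10.20 ± 0.43 at ZT10, 10.09 ± 0.41 at ZT14, 10.001 ± 0.32 at ZT18 and 9.48 ± 0.37 at ZT22 (SD, n = 10 each, 9 at ZT10). The lowest, median and highest libraries were 8.61, 9.29 and 9.94 at ZT2, 9.41, 10.13 and 10.76 at ZT6, 9.51, 10.19 and 10.89 at ZT10, 9.60, 10.10 and 10.76 at ZT14, 9.46, 10.03 and 10.51 at ZT18, and 8.69, 9.44 and 10.03 at ZT22. The day therefore had a high plateau of 4 times, within which neighbours differed by less than the SD, and a low pair of times, ZT22 and ZT2, which also differed by less than the SD. The ranges of the plateau and of the low pair overlapped, but the highest library at ZT2 lay below the medians of all 4 plateau times. The fitted amplitude, mean to peak, was 0.44 ± 0.08 (SE), a 1.83-fold change between trough and peak, with a peak at ZT11.6 ± 0.67 h (adjusted p = 0.00065, limma, Benjamini-Hochberg).

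Nr1d2 (ENSMUSG00000021775, chr14:18204054-18239127, minus strand), the gene of the paralog REV-ERB beta, was lower in the first part of the light phase. Its level averaged 11.53 ± 0.26 at ZT2, 11.55 ± 0.26 at ZT6, 11.91 ± 0.26 at ZT10, 11.98 ± 0.24 at ZT14, 11.83 ± 0.25 at ZT18 and 11.62 ± 0.25 at ZT22 (SD, n = 10 each, 9 at ZT10). The lowest, median and highest libraries were 11.22, 11.51 and 12.07 at ZT2, 11.20, 11.54 and 11.96 at ZT6, 11.44, 11.88 and 12.34 at ZT10, 11.58, 12.03 and 12.28 at ZT14, 11.43, 11.86 and 12.16 at ZT18, and 11.18, 11.68 and 12.005 at ZT22. All 6 ranges overlapped, and no pair of neighbours in the order of means was further apart than the SD. Its amplitude was 0.24 ± 0.05 (SE), a 1.40-fold change between trough and peak, with a peak at ZT13.9 ± 0.72 h (adjusted p = 0.00159, limma, Benjamini-Hochberg).

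Rora (ENSMUSG00000032238, chr9:68653786-69388246, plus strand), the gene of the activating receptor that competes with the REV-ERBs, changed least. Its level averaged 10.46 ± 0.25 at ZT2, 10.52 ± 0.29 at ZT6, 10.67 ± 0.35 at ZT10, 10.54 ± 0.41 at ZT14, 10.70 ± 0.29 at ZT18 and 10.56 ± 0.20 at ZT22 (SD, n = 10 each, 9 at ZT10). The lowest, median and highest libraries were 9.91, 10.50 and 10.70 at ZT2, 9.93, 10.60 and 10.80 at ZT6, 10.04, 10.67 and 11.21 at ZT10, 9.79, 10.72 and 11.02 at ZT14, 10.06, 10.81 and 10.98 at ZT18, and 10.17, 10.55 and 10.83 at ZT22. The largest gap between neighbouring means was 0.11, less than the SD at any time. The amplitude of 0.08 ± 0.06 (SE) did not pass (adjusted p = 0.888, limma, Benjamini-Hochberg), and its 95% interval reached up to 0.19, so a rhythm smaller than that of Nr1d2 is not excluded by these libraries. With the first 2 principal components as covariates, Rora had an amplitude of 0.12 and was called (adjusted p = 0.0119, limma, Benjamini-Hochberg), among 499 genes called.

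Hlf (ENSMUSG00000003949, chr11:90336536-90390895, minus strand) was high late in the dark phase. Its level averaged 11.44 ± 0.22 at ZT2, 11.49 ± 0.24 at ZT6, 11.41 ± 0.24 at ZT10, 11.48 ± 0.23 at ZT14, 11.77 ± 0.14 at ZT18 and 11.71 ± 0.16 at ZT22 (SD, n = 10 each, 9 at ZT10). The lowest, median and highest libraries were 11.06, 11.46 and 11.74 at ZT2, 11.05, 11.57 and 11.69 at ZT6, 11.02, 11.39 and 11.70 at ZT10, 11.14, 11.47 and 11.84 at ZT14, 11.44, 11.79 and 11.95 at ZT18, and 11.50, 11.65 and 11.98 at ZT22. The 4 times from ZT2 to ZT14 differed by less than the SD, and ZT18 and ZT22 stood above them with overlapping ranges and a smaller spread. The amplitude was 0.17 ± 0.04 (SE), a 1.27-fold change between trough and peak, with a peak at ZT19.8 ± 0.90 h (adjusted p = 0.0271, limma, Benjamini-Hochberg). The call ended without ZT6 female replicate 4 (0.0513), ZT10 male replicate 3 (0.0518) or ZT10 female replicate 4 (0.0502, limma, Benjamini-Hochberg). It also ended when serial numbers 49 to 60 were left out, at 0.16 (adjusted p = 0.107, limma, Benjamini-Hochberg).

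**Figure D2:**
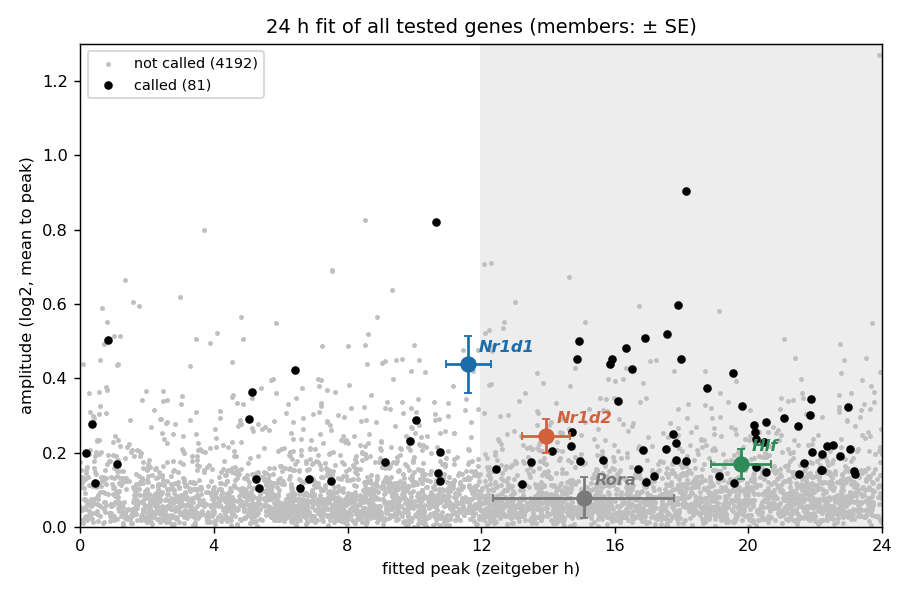
Fitted amplitude (log2, mean to peak) against fitted peak (zeitgeber hours) of all genes tested; black points are the 81 genes called, grey points the others, and colored points the members with bars of ± SE. Nr1d1 stands above most called genes, Nr1d2 and Hlf lie among them, and Rora lies among the genes not called.

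Among the 81 called genes Nr1d1 ranked 13 by amplitude, Nr1d2 34 and Hlf 59, where the median amplitude of called genes was 0.22 and that of all genes tested 0.08. Of the called genes 60 peaked between ZT12 and ZT24, as did Nr1d2 and Hlf, and Nr1d1 was 1 of 6 that peaked between ZT10 and ZT12. The amplitude of Nr1d1 exceeded that of Hlf by 0.27 (95% interval 0.06 to 0.47) and that of Rora by 0.36 (0.20 to 0.52). Against its paralog Nr1d2 the excess was 0.19, with an interval of -0.03 to 0.41 that includes 0. Nr1d2 exceeded Rora by 0.17 (0.01 to 0.32), and its excess of 0.07 over Hlf had an interval of -0.05 to 0.20.

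The order of the peaks was clearest for Hlf. Its fitted peak followed that of Nr1d1 by 8.17 h (95% interval 5.54 to 10.8 h) and that of Nr1d2 by 5.84 h (3.55 to 8.14 h). The paralogs lay closer, with Nr1d2 2.33 h after Nr1d1 and an interval of -0.14 to 4.80 h that includes 0. The peak of Rora, at ZT15.1 ± 2.71 h, is given for its uncertainty only, since its rhythm was not called.

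When no waveform was assumed and the 6 times were compared as a factor, 45 genes were called, 1.05% of those tested, and these included Nr1d1 and Nr1d2. The adjusted p was 0.000823 for Nr1d1, whose highest and lowest times differed by 0.89, and 0.0293 for Nr1d2, with 0.45 (limma, Benjamini-Hochberg). Hlf, with a difference of 0.36, did not pass (0.0575), and neither did Rora, with 0.24 (0.835, limma, Benjamini-Hochberg). Those of Nr1d2 and Hlf lay close to the threshold. With libraries of the same animal number averaged, the calls of Nr1d1 (0.74, 0.138) and Nr1d2 (0.54, 0.0645) ended (limma, Benjamini-Hochberg). The call of Nr1d2 also ended without ZT14 male replicate 4 (0.0542) or ZT14 female replicate 3 (0.0540). That of Hlf was gained without any 1 of 9 libraries, ZT2 male replicate 5, ZT2 female replicate 1, ZT6 male replicate 4, ZT10 male replicates 1 and 2, ZT14 female replicates 2 and 5, ZT18 male replicate 4 or ZT22 female replicate 3, with adjusted p-values down to 0.0299 (limma, Benjamini-Hochberg).

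A second harmonic of 12 h was not detected. Neither limma with Benjamini-Hochberg adjustment nor limma voom called a gene (0 each), and limma gave 291 an unadjusted p under 0.05. Nr1d1, with its plateau of 4 times, had a 12 h amplitude of 0.22 ± 0.07 (SE) and an unadjusted p of 0.0139, and Hlf had 0.10 ± 0.04 and 0.044, and 0.625 was the adjusted p of both (limma, Benjamini-Hochberg). Nr1d2 and Rora had unadjusted p-values of 0.594 and 0.414 in the same fit.

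Steps of 4 h located the changes. Between ZT2 and ZT6 Nr1d1 rose: the 10 libraries at ZT6 averaged 10.15, against 9.32 at ZT2, a difference of 0.84 ± 0.18 (SE; adjusted p = 0.0225, limma, Benjamini-Hochberg). All 10 libraries at ZT6 lay above the mean of ZT2, and 6 of them above every library at ZT2. This was the only called step of the 6 for any member, in a comparison where 2 genes, 0.0468%, were called higher and 6 in either direction, 0.14%. The call ended without ZT2 male replicate 3, ZT2 female replicates 2 or 4, ZT6 male replicates 3 or 5, or ZT6 female replicate 5, with adjusted p-values up to 0.0851, and also when serial numbers 49 to 60 were left out, at 0.76 (adjusted p = 0.108, limma, Benjamini-Hochberg). It ended as well with libraries of the same animal number averaged, at 0.665 (0.72), and with reads scaled by the library total, at 0.98 (0.936, limma, Benjamini-Hochberg). With the first 2 principal components as covariates, ZT22 minus ZT18 was also called for Nr1d1, at -0.43 (0.0195), and Nr1d2, at -0.30 (0.0335), and ZT2 minus ZT22 for Hlf, at -0.23 (0.0227, limma, Benjamini-Hochberg). In that setting 2 genes were called in ZT22 minus ZT18 and 6 in ZT2 minus ZT22.

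**Figure D3:**
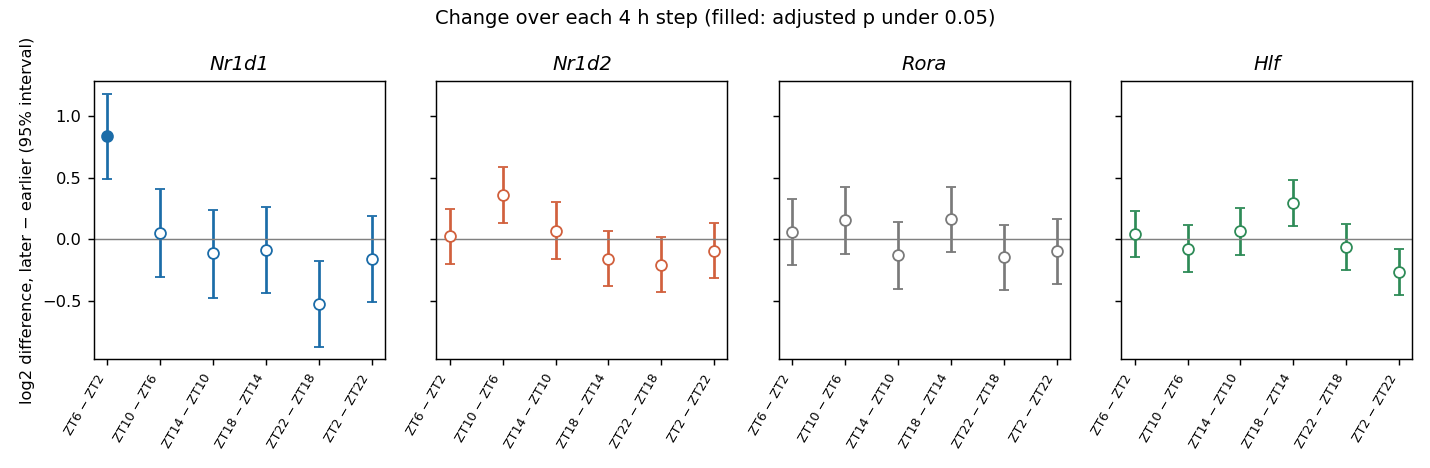
Difference in log2 level over each 4 h step, later minus earlier time, for each member, with 95% intervals; a filled point passed the adjusted threshold. The rise of Nr1d1 between ZT2 and ZT6 is the only filled point, and the largest steps of Nr1d2, between ZT6 and ZT10, and of Hlf, between ZT14 and ZT18, come later.

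The largest steps of the other members did not pass. For Nr1d2 this was ZT10 over ZT6, with means of 11.91 and 11.55 and a difference of 0.36 ± 0.12 (SE), with p-values of 0.00322 unadjusted and 0.763 adjusted (limma, Benjamini-Hochberg). For Hlf it was ZT18 over ZT14, with means of 11.77 and 11.48 and a difference of 0.30 ± 0.09 (unadjusted 0.00282, adjusted 0.39, limma, Benjamini-Hochberg), and 9 of 10 libraries at ZT18 lay above the mean of ZT14. The largest downward steps were ZT22 minus ZT18 for Nr1d1, with -0.53 ± 0.18 (unadjusted 0.0044, adjusted 0.904), and ZT2 minus ZT22 for Hlf, with -0.27 ± 0.09 (unadjusted 0.00659, adjusted 0.999, both limma, Benjamini-Hochberg). In those last 2 steps limma and limma voom each called 0 genes, and limma put 193 and 161 at an unadjusted p under 0.05. Between ZT6 and ZT10 limma called 1 gene, 0.0234%, and 3 genes, 0.0702%, in each of the next 2 steps.

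Times 12 h apart, dark against light, separated the members further. At ZT14 Nr1d1 averaged 10.09, against 9.32 at ZT2, a difference of 0.77 ± 0.18 (SE; adjusted p = 0.0298), and Nr1d2 averaged 11.98, against 11.53, a difference of 0.45 ± 0.11 (adjusted p = 0.0488, both limma, Benjamini-Hochberg). All 10 libraries at ZT14 lay above the ZT2 mean for either gene, and 6 for Nr1d1 and 4 for Nr1d2 lay above every library at ZT2. In this comparison 16 genes, 0.374%, were called higher and 17 in either direction, 0.398%. Rora, with 0.08, and Hlf, with 0.04, did not pass. With libraries of the same animal number averaged, the differences were 0.63 for Nr1d1 (adjusted p = 0.326) and 0.54 for Nr1d2 (0.0883, limma, Benjamini-Hochberg), and both calls ended. The call of Nr1d1 ended without ZT2 male replicates 1 or 3, ZT2 female replicates 2 or 4, ZT14 male replicate 5 or ZT14 female replicate 5 (adjusted p up to 0.0695), and when serial numbers 49 to 60 were left out (0.68, adjusted p = 0.081, limma, Benjamini-Hochberg). That of Nr1d2 ended without any 1 of 33 libraries, 16 of them at ZT2 or ZT14 and 17 at other times, with the highest adjusted p, 0.121, without ZT14 male replicate 4 (limma, Benjamini-Hochberg).

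Between the later pairs of opposite times no member was called. At ZT22 Nr1d1 averaged 9.48, against 10.20 at ZT10, a difference of -0.73 ± 0.18 (SE; adjusted p = 0.0709, limma, Benjamini-Hochberg), and all 10 libraries at ZT22 lay below the ZT10 mean, in a comparison where 10 genes, 0.234%, were called. It passed without ZT10 male replicate 3 (0.0356), ZT10 female replicate 3 (0.0349) or ZT22 female replicate 5 (0.0456, limma, Benjamini-Hochberg). Over the same pair Hlf went the other way, at 11.71 in ZT22 libraries and 11.41 in ZT10 libraries, a difference of 0.30 ± 0.10 (adjusted p = 0.351), and Nr1d2 had -0.29 ± 0.12 (0.639, both limma, Benjamini-Hochberg). In ZT18 minus ZT6, where 32 genes, 0.749%, were called, Hlf differed by 0.29 ± 0.09 (adjusted p = 0.192) and Nr1d2 by 0.27 ± 0.11 (0.408), while Nr1d1 differed by -0.15 ± 0.18 and Rora by 0.18 ± 0.13 (limma, Benjamini-Hochberg).

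No difference in level between males and females passed for any member. Males minus females gave -0.08 ± 0.10 for Nr1d1 (95% interval -0.29 to 0.12), 0.05 ± 0.07 for Nr1d2 (-0.08 to 0.18), -0.03 ± 0.08 for Rora (-0.18 to 0.13) and 0.01 ± 0.06 for Hlf (-0.10 to 0.12), and the adjusted p was 0.999 for each (SE; limma, Benjamini-Hochberg). In this comparison 1 gene, 0.0234%, was called.

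In either sex alone no member passed, with 30 male and 29 female libraries. In males 7 genes were called, 0.164%, and in females 14, 0.328%. With the first 2 principal components as covariates, all 4 members passed in males, and Nr1d1, Nr1d2 and Hlf in females (limma, Benjamini-Hochberg). The amplitude of Nr1d1 was 0.52 ± 0.11 in males with a peak at ZT11.0 (adjusted p = 0.0633) and 0.36 ± 0.10 in females with a peak at ZT12.5 (0.282, SE; limma, Benjamini-Hochberg). That of Nr1d2 was 0.28 ± 0.07 in males with a peak at ZT14.8 (0.17) and 0.22 ± 0.06 in females with a peak at ZT12.8 (0.223, limma, Benjamini-Hochberg). Hlf had 0.13 ± 0.06 in males with a peak at ZT20.6 (0.728) and 0.21 ± 0.06 in females with a peak at ZT19.3 (0.292, limma, Benjamini-Hochberg). Rora had 0.11 ± 0.07 in males (0.876) and 0.15 ± 0.08 in females (0.686, limma, Benjamini-Hochberg). Nr1d1 in males passed without ZT6 male replicate 4, ZT10 male replicate 3, ZT14 male replicates 2 or 4, or ZT18 male replicate 5, with adjusted p-values between 0.0241 and 0.0496 (limma, Benjamini-Hochberg).

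The single libraries at the extremes of Nr1d1 show how far the sexes overlapped. At ZT10 the 5 males were at 10.19, 10.48, 9.51, 10.52 and 10.89, and the 4 females at 10.07, 10.37, 9.68 and 10.08. At ZT2 the 5 males were at 9.17, 9.40, 8.61, 9.78 and 9.17, and the 5 females at 9.86, 9.05, 9.51, 8.66 and 9.94. The sexes overlapped at both times, and within each sex a single library at ZT10, male replicate 3 at 9.51 and female replicate 3 at 9.68, reached down into the ZT2 range.

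Whether the rhythm differed between males and females was tested in 1 model. Neither limma with Benjamini-Hochberg adjustment nor limma voom called a gene (0 each), and limma gave 180 an unadjusted p under 0.05. The size of the difference was 0.23 ± 0.15 for Nr1d1, 0.14 ± 0.09 for Nr1d2, 0.21 ± 0.11 for Rora and 0.10 ± 0.08 for Hlf (SE), with adjusted p-values between 0.741 and 0.804 (limma, Benjamini-Hochberg). The upper ends of the 95% intervals reached 0.53 for Nr1d1, 0.32 for Nr1d2, 0.42 for Rora and 0.25 for Hlf, and these libraries bound the differences no more tightly than that.

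The serial numbers divide the libraries into 5 runs of 12, each with every time and sex except for 1 absent number in the fifth, and the fit was repeated within each run as a description with no test. Nr1d1 had amplitudes of 0.458, 0.435, 0.306, 0.463 and 0.667 in runs 1 to 5, with peaks between ZT10.4 and ZT12.0. Nr1d2 had 0.170, 0.249, 0.316, 0.309 and 0.191, with peaks between ZT12.6 and ZT15.3, later than Nr1d1 in every run. Hlf had 0.146, 0.138, 0.159, 0.231 and 0.159, with peaks between ZT18.9 and ZT21.0. Rora, with 0.170, 0.099, 0.072, 0.036 and 0.085, had peaks spread between ZT12.3 and ZT17.9.

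**Figure D4:**
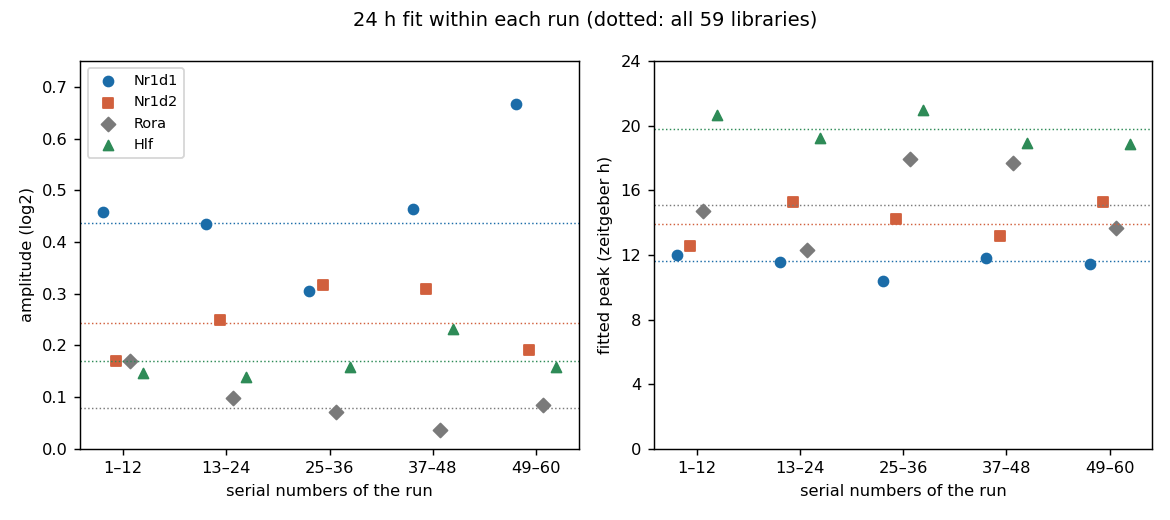
Amplitude (log2, left) and fitted peak (zeitgeber hours, right) of each member within each run of serial numbers; dotted lines are the fits over all 59 libraries. Nr1d1, Nr1d2 and Hlf keep the same order of peaks in all 5 runs, and the amplitude of Nr1d1 is lowest in the third run at 0.306 and highest in the fifth at 0.667.

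The levels of the members, unlike their peaks, moved with the fifth run. The fitted mean of Nr1d1 was 10.37 in the 11 libraries numbered 49 to 60, against 9.62 to 9.91 in the other runs. That of Nr1d2 was 11.44, against 11.72 to 11.92, and that of Hlf was 11.75, against 11.37 to 11.62. Nr1d1 and Hlf were thus higher, and Nr1d2 lower, in the libraries numbered 49 to 60 than in any other run, whereas Rora, at 10.75, lay close to the highest other run, at 10.70. Whether these levels follow from how those libraries were made was not tested.

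After the time and sex means were removed, all pairs of members except Nr1d2 and Rora covaried between the libraries numbered 1 to 48. The permutations treated libraries as interchangeable, although animal numbers repeat, so these p-values may be too small. Means of the runs were not removed, and those of Rora were 10.70, 10.58, 10.62 and 10.23 in runs 1 to 4. Pairs of other genes were not computed, so whether the covariation is particular to the members was not tested. In the 48 libraries numbered 1 to 48, Nr1d1 and Nr1d2 went opposite ways, with Pearson r = -0.66 and Spearman rho = -0.60 (permutation test with 100000 resamples, adjusted p = 2e-05 for r and 4e-05 for rho by Benjamini-Hochberg over 6 pairs), and r was -0.59 without the 2 libraries farthest from the median. Nr1d1 and Hlf went together, with r = 0.73 and rho = 0.70 (adjusted permutation p = 2e-05 and 3e-05; r = 0.66 without the 2 libraries), as did Rora and Hlf, with r = 0.71 and rho = 0.69 (2e-05 and 3e-05; 0.73). The unadjusted p of these 3 r values, 1e-05, is the smallest the permutations can give. Nr1d1 and Rora had r = 0.50 and rho = 0.53 (adjusted permutation p = 0.00036 and 0.000255; 0.42), Nr1d2 and Hlf r = -0.37 and rho = -0.36 (0.0107 and 0.0164; -0.31), and Nr1d2 and Rora r = -0.05 and rho = -0.09 (0.722 and 0.544; -0.03).

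**Figure D5:**
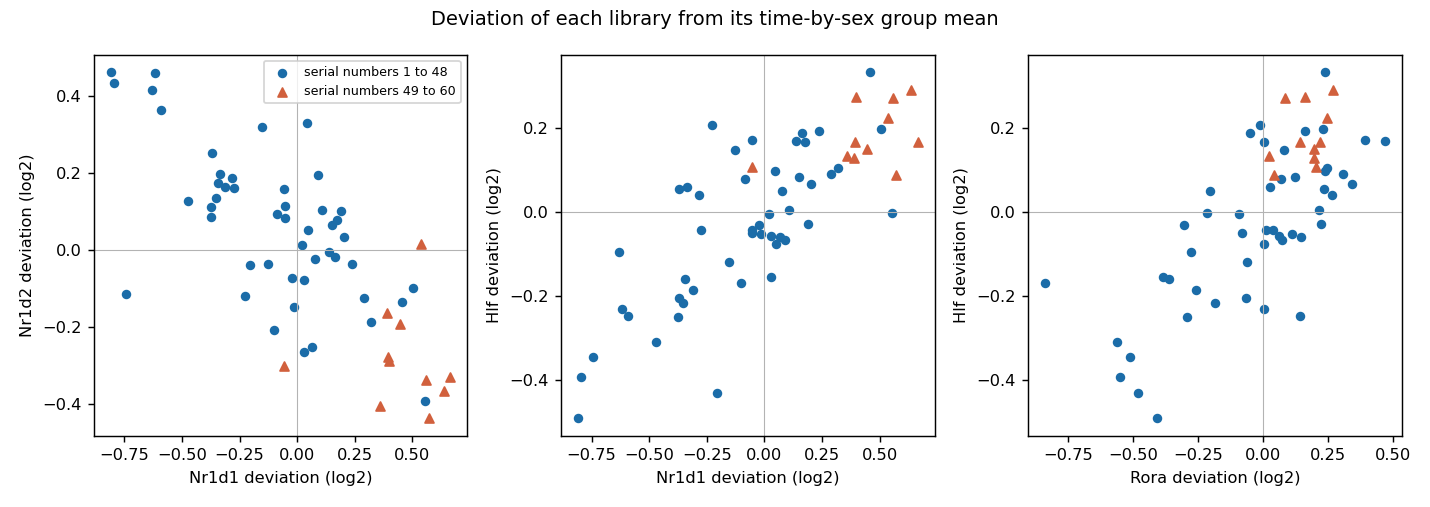
Deviation of each library from its time-by-sex group mean (log2) for 3 pairs of members; circles are libraries numbered 1 to 48 and triangles those numbered 49 to 60. Nr1d2 falls as Nr1d1 rises, Hlf rises with Nr1d1 and with Rora, and the triangles gather where Nr1d1 and Hlf are high and Nr1d2 is low.

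This joint variation moved with the leading components of all genes. In the same 48 libraries the deviation of Nr1d1 had r = 0.81 and rho = 0.72 with the first principal component, that of Nr1d2 r = -0.70 and rho = -0.73, that of Hlf r = 0.68 and rho = 0.61 and that of Rora r = 0.36 and rho = 0.33 (adjusted permutation p of r between 1.33e-05 and 0.0112, Benjamini-Hochberg over 4 relations). Without the 2 libraries farthest from the median these r were 0.76, -0.63, 0.59 and 0.24. With the second component Rora had r = 0.80 and rho = 0.75 and Hlf r = 0.60 and rho = 0.60 (adjusted permutation p of r = 4e-05 for both, over 4 relations; r = 0.75 for Rora and 0.56 for Hlf without the 2 libraries), and Nr1d1 and Nr1d2 did not pass by r (0.0564 and 0.642). By rho Nr1d1 passed, at 0.375 (adjusted permutation p = 0.0126), and Nr1d2 did not, at 0.012 (0.936). With the share of reads in the 6 most abundant genes no member passed (adjusted permutation p of r between 0.0672 and 0.968). In the 11 libraries numbered 49 to 60 no member passed by r with the first component (adjusted permutation p between 0.334 and 0.734). With the first 2 components as covariates, a setting chosen after seeing the data, none of the 6 pairs passed, with r between -0.26 for Nr1d1 and Nr1d2 and 0.34 for Nr1d2 and Rora (adjusted permutation p between 0.108 and 0.477). Without covariates, no pair of members passed in those 11 libraries either, with r between -0.06 and 0.57 (adjusted permutation p between 0.38 and 0.881). When reads were scaled by the library total instead, the pairs of Nr1d2 turned positive, with r = 0.52 for Nr1d1 and Nr1d2, whereas scaling by the total outside the 6 most abundant genes left that pair at r = -0.59, so the signs of the pairs with Nr1d2 depend on the scaling.

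Few partners of these genes were in the table, which is partial, so the absence of a partner says nothing about its expression. Of 20 core clock genes listed, 7 were tested and 6 had a 24 h rhythm. Besides the members these were Per1, Per2 and Per3, repressors of CLOCK and BMAL1, with amplitudes of 0.45 ± 0.05 and a peak at ZT14.9 for Per1, 0.52 ± 0.07 and ZT17.6 for Per2 and 0.23 ± 0.05 and ZT17.8 for Per3 (SE; adjusted p = 9.74e-08, 9.88e-06 and 0.00841, limma, Benjamini-Hochberg). Nr1d1 and Nr1d2 thus had earlier fitted peaks than all 3 Per genes, and Hlf a later one; these differences of peak were not tested. The other lists held 0 called genes by limma with Benjamini-Hochberg adjustment and by limma voom, and their counts of unadjusted p under 0.05 stand beside 11.4% of all genes tested.

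Of the REV-ERB corepressor complex 1 of 6 genes was tested, the deacetylase gene Hdac3, with an amplitude of 0.06 ± 0.04 (SE; unadjusted p = 0.29, adjusted p = 0.83, limma, Benjamini-Hochberg). Of 8 ROR coactivators 3 were tested and 1 had an unadjusted p under 0.05, Ncoa3, with 0.16 ± 0.06, a peak at ZT15.7 (adjusted p = 0.297, limma, Benjamini-Hochberg); Kat2b had 0.13 ± 0.06 and Crebbp 0.06 ± 0.09. Of 17 REV-ERB and ROR target genes 3 were tested, the cerebellar glutamate transporter gene Slc1a6 with 0.13 ± 0.08, the sterol regulator gene Insig2 with 0.07 ± 0.06 and the calcium-binding protein gene Calb1 with 0.05 ± 0.04, and 0 had an unadjusted p under 0.05. Of 6 PAR bZIP target genes 1 was tested, Por, which encodes the electron donor of cytochrome P450 enzymes, with 0.09 ± 0.04 and a peak at ZT18.0 (unadjusted p = 0.0573, adjusted p = 0.46, limma, Benjamini-Hochberg). None of the 11 genes of heme synthesis and breakdown was tested.

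Among 35 other nuclear receptor genes 9 were tested and 2 had an unadjusted p under 0.05, the estrogen receptor gene Esr1, at 0.31 ± 0.09 with a peak at ZT22.7 (SE; adjusted p = 0.122), and Nr4a2, with 0.38 ± 0.15 and a peak at ZT23.7 (0.422, both limma, Benjamini-Hochberg). The progesterone receptor gene Pgr had 0.08 ± 0.04 and the glucocorticoid receptor gene Nr3c1 0.06 ± 0.03. Of 14 C/EBP and related bZIP factors 3 were tested, with 0.08 ± 0.04 for Cebpg, 0.11 ± 0.07 for Mafk and 0.10 ± 0.08 for Ddit3, and 0 had an unadjusted p under 0.05. The median amplitude of the lists with at least 3 tested genes was 0.24 for the core clock, 0.13 for the coactivators, 0.07 for the REV-ERB and ROR targets, 0.09 for the other receptors and 0.10 for the bZIP factors, against 0.08 for all genes tested. The 7 tested core clock genes include all 4 members, and their median is the amplitude of Nr1d2, so that value does not describe partners alone.

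The genes with a proper name whose 12 group means were most like those of a member differed from gene to gene, and these values are descriptions over 12 points that share libraries. For Nr1d1 they were Herc3 (Pearson r = 0.88), Slc2a13 (0.87) and Phkg2 (0.85). For Nr1d2 they were Utp15 (0.92), Cables1 (0.91) and Coq10b (0.91), of which Utp15 was itself called, at 0.20 ± 0.04 with a peak at ZT14.1 (SE; adjusted p = 0.00594, limma, Benjamini-Hochberg). For Hlf they were the histamine receptor gene Hrh3 (0.93), Spty2d1 (0.92) and Smg6 (0.91), and Hrh3 was called, with 0.28 ± 0.07 and a peak at ZT20.5 (SE; adjusted p = 0.0282, limma, Benjamini-Hochberg). For Rora they were Zfp553 (0.89), Atad5 (0.89) and Asb8 (0.88), in ranks 2 to 4 behind a gene without such a name, none of which was called. Pairs of members had r of 0.48 for Nr1d1 and Nr1d2, 0.48 for Nr1d1 and Rora and 0.22 for Nr1d2 and Rora. With Hlf, r was 0.54 for Rora, -0.10 for Nr1d1 and -0.12 for Nr1d2. The genes above were picked for their high r and the members were not, so these values cannot be set against each other. By likeness to Nr1d1 over all genes tested, Nr1d2 ranked 466, Rora 473 and Hlf 2445. By likeness to Nr1d2, Rora ranked 1290 and Hlf 2728, and by likeness to Rora, Hlf ranked 349.

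The annotation limits the identity of Nr1d1 most. Of its 3077 exonic bases 263, 8.5%, overlap exons of the thyroid hormone receptor gene Thra on the other strand, and 82 exonic bases of Rora, 0.6%, overlap the antisense gene Gm15511. The strand setting of the counting is not given in the sources used here, so reads in the shared bases cannot be told apart, and Thra and Gm15511 were not analysed here. Nr1d2 and Hlf share no exonic bases with other genes in this annotation.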

How the data were processed

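RNA was measured in 59 libraries of homogenate mouse medial prefrontal cortex. Per the labels, the kits were Qiagen RNeasy Plus Micro and Takara SMART Stranded Total RNA. FastQC, HTSeq, DESeq2 and the genome build GRCm38 are named in the submitters' processing notes, and an aligner, versions and the strand setting are not given in the sources used here. The deposited values are log2 of a scaled read count plus 1, read from the values themselves. Dividing by the step of 1 read gave whole reads for all values under 5000 reads (largest distance from a whole number 0.0 at 4 decimals); higher ones were rounded. These reads were used for depth and the filter, and library totals are their sums over the 4484 genes in the table.

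Groups follow the titles. Replicate numbers are the runs of 12 serial numbers, and every library counted as a separate animal, although the titles repeat animal numbers in every group, so p-values measure only the spread between these libraries. Genes with at least 10 reads in at least 4 libraries were tested with limma 3.58.1 (statmod 1.5.0) in R 4.3.3 (intensity trend, robust fit), and Benjamini-Hochberg adjustment over 4273 genes at 0.05. A 24 h rhythm is the joint test of cosine and sine with sex as covariate; amplitudes run from mean to peak, and their 95% intervals are normal approximations. Differences of peak and amplitude between members use the residual covariance of the genes, and the amplitude differences were added after the values were seen. Covariation was computed in Python 3.11.15 with numpy 2.4.6 and scipy 1.17.1. Positions and symbols are from GENCODE M21, and promoters from RefSeq (GRCm38.p6), where all 4 members matched. The models were tested on simulated data.

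The members and lists were chosen with earlier results of these data known. Named genes are the members, called genes of each list or up to 4 of smallest p, and the 3 genes with a proper name most like each member. Alternatives were limma voom, 2 other scalings, 2 filters, a pseudocount of 10, a simpler variance model, run or principal components as covariates, leaving out libraries and, added after the values were seen, averaging libraries of 1 animal number. Counting intervals cover counting error only.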

Additional observations from a re-analysis of the deposited data

Results flagged for a closer look

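In groups of 4 or 5 libraries, 5 single values stood far from the rest of their group. Chance alone does so in about 1 in 20 checks, and 48 checks were made, of the 4 members in each of 12 groups. These checks are not independent, since deviations of the members were correlated. All 5 were low values, 3 of Rora and 2 of Hlf. For Rora, ZT6 male replicate 4 was at 9.93, where the other libraries of its group ran between 10.55 and 10.71, ZT14 female replicate 4 was at 9.79 against 10.71 to 11.02, and ZT22 male replicate 1 was at 10.17 against 10.47 to 10.57. For Hlf, ZT10 male replicate 3 was at 11.02, where the others ran between 11.58 and 11.70, and ZT18 male replicate 4 was at 11.44 against 11.79 to 11.88. Values of Nr1d1 and Nr1d2 met this criterion in no group.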

How the results depend on the processing

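Over 11 alternatives the 24 h amplitudes, which are always positive, ran from 0.367 to 0.460 for Nr1d1, 0.221 to 0.284 for Nr1d2, 0.069 to 0.118 for Rora and 0.153 to 0.201 for Hlf, with peaks at ZT11.5 to ZT11.8, ZT13.4 to ZT14.3, ZT13.7 to ZT16.7 and ZT19.4 to ZT20.3. Adjusted p-values below are from limma with Benjamini-Hochberg adjustment, and the cause of each change was not tested. With reads scaled by the library total, which shifts the median gene by an amplitude of 0.03 and is set mostly by 6 noncoding genes, the calls ended for Nr1d1 (0.404), Nr1d2 (0.221) and Hlf (0.193, adjusted p = 1 each). Then 3 genes were called, the 6 times differed by 0.98 for Nr1d1 and 0.46 for Nr1d2, ZT14 minus ZT2 was 0.73 for Nr1d1 and 0.41 for Nr1d2, ZT6 minus ZT2 was 0.98 for Nr1d1, and covariation reversed in libraries 1 to 48 for Nr1d1 with Nr1d2 (r = 0.515), Nr1d2 with Rora (0.582) and Nr1d2 with Hlf (0.682). In libraries 49 to 60 it was stronger there, at 0.696 for Nr1d1 with Hlf, 0.853 for Nr1d2 with Rora, 0.807 for Nr1d2 with Hlf and 0.936 for Rora with Hlf. Pairs of other genes were not computed under this scaling, so whether these changes are particular to the members was not tested.

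Without libraries 49 to 60, 52 genes were called, Hlf had 0.164 (adjusted p = 0.107) and Nr1d1 in ZT14 minus ZT2 0.68 (0.081). The 24 h calls of Nr1d1 (0.411, adjusted p = 0.00181) and Nr1d2 (0.253, 0.00128) remained. With the first 2 principal components as covariates 499 genes were called and Rora passed at 0.118. The sexes alone then passed at 0.532, 0.242, 0.164 and 0.147 in males for Nr1d1, Nr1d2, Rora and Hlf, and at 0.383, 0.253 and 0.153 in females for Nr1d1, Nr1d2 and Hlf. So did Hlf among the 6 times (0.32), ZT18 minus ZT6 for Nr1d2 (0.28) and Hlf (0.24), ZT22 minus ZT10 for Nr1d1 (-0.77), Nr1d2 (-0.27) and Hlf (0.28), ZT22 minus ZT18 for Nr1d1 (-0.43) and Nr1d2 (-0.30), and ZT2 minus ZT22 for Hlf (-0.23). Covariation in libraries 1 to 48 then no longer passed for Nr1d1 with Nr1d2 (-0.261), Rora (0.105) or Hlf (0.179) and for Rora with Hlf (0.135). That of Nr1d2 with Hlf no longer passed either, and its r changed sign, to 0.117 (adjusted permutation p = 0.477).

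With libraries of the same animal number averaged, the 6 times differed by 0.74 for Nr1d1 and 0.54 for Nr1d2, ZT14 minus ZT2 was 0.63 and 0.54, and ZT6 minus ZT2 was 0.665 for Nr1d1, all no longer passing.

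The run numbers did not pair the libraries by the criterion that every pair exceed 0.1: 148 of 319 same-run pairs had deviations correlated above it (mean r 0.107, -0.494 to 0.601), against 310 of 1276 pairs of different runs (mean -0.026). In run 5 all 55 pairs did (mean 0.408), and 26 of 59 libraries correlated best with their own run. With the run as a replicate block, Nr1d1 (0.521) and Nr1d2 (0.282) passed in males, Nr1d1 in females (0.395), Hlf among the 6 times (0.34), Hlf in ZT18 minus ZT6 (0.29) and Nr1d1 in ZT22 minus ZT10 (-0.78). This block called 15 genes in males, 91 among the 6 times and 16 in ZT22 minus ZT10. Other settings changed Hlf among the 6 times, which passed with limma voom (0.362) and with a mean of at least 50 reads (0.363). They also ended ZT14 minus ZT2 of Nr1d2, at 0.44 scaled by the total outside the 6 most abundant genes, 0.45 with no filter and 0.45 with no trend and no robust fit, and covariation of Nr1d2 with Hlf under that scaling (-0.286). A pseudocount of 10 changed no call of a member.

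Leaving out each library in turn gave 0.158 to 0.179 for Hlf over 24 h, 0.475 to 0.580 for Nr1d1 in males, 0.693 to 0.837 for Nr1d1 and 0.416 to 0.512 for Nr1d2 in ZT14 minus ZT2, -0.809 to -0.637 for Nr1d1 in ZT22 minus ZT10, 0.757 to 0.915 for Nr1d1 in ZT6 minus ZT2, and 0.331 to 0.402 for Hlf and 0.418 to 0.512 for Nr1d2 among the 6 times. With Spearman rho in place of Pearson r, the genes most like each member shared only Cables1 for Nr1d2 and Asb8 for Rora with those named. Nr1d1 had the fewest reads of the members, with a median of 306 and a lowest value of 99 in ZT22 male replicate 1, a library at a low time of this gene.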
